A study of Rattus norvegicus with 12 samples.

Results

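Transcripts that mark macrophages, and in the liver chiefly Kupffer cells, were followed in cultures of rat hepatocytes given dexamethasone or vehicle. The markers were 10 genes: Csf1r, Itgam, Cd68, Cd163, Cd14, Marco, Clec4f, C1qa, C1qb and Lyz2. Probes were chosen by gene name, and by older names or descriptions where the array files use them. The array files hold 41012 probes with 35506 gene names. The choice gave 16 probes, and 14 of these were both of settled identity and among the 30980 probes kept for testing. To be kept, a probe had to be well above background in at least 1 of the groups, on all 3 of its arrays. Of the 14, 12 were well above background on all 12 arrays, the Itgam probe on 10 and a second Csf1r probe on 9.

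The study asked how a glucocorticoid changes gene expression in hepatocytes of male and female rats. The rats were Sprague-Dawley, at 11 weeks of age. Collagenase was perfused through the liver, the cells were spun at low speed, and hepatocytes were plated on collagen, first with serum and then without it. The 4 groups, named from the sample titles, were male vehicle, male dexamethasone, female vehicle and female dexamethasone, with 3 arrays each. Vehicle was 0.01% ethanol, and dexamethasone, a synthetic glucocorticoid, was given at 100 nM (the labels write the unit as nm); both lasted 6 hours. The labels also carry a sex entry, which is male for each of the 12 samples. The titles, which name 2 sexes, were followed. Nothing in the labels ties replicates to separate animals or cultures, so the p-values reflect only how far these samples differ, and that spread may be technical.

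Kupffer cells are the resident macrophages of the liver sinusoids. They clear particles, bacteria and old red cells from portal blood through scavenger and complement receptors, and they depend on signalling through the Csf1r receptor. A low-speed spin enriches hepatocytes, which are larger and denser than macrophages, but such preparations can carry other liver cells. Glucocorticoids act on both cell types: in macrophages they are known to lower inflammatory cytokines and to raise scavenger receptors such as Cd163.

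The probes are 60 bases long, and 5 of them are printed to show what was hybridised for the complement, scavenger receptor, integrin and lysozyme genes described most fully. Both C1qa probes lie on chromosome 5 of build rn3, minus strand, at chr5:155672617-155672676 and chr5:155672806-155672865. The files place the Cd163 probe within chr4:160652157-160652858, plus strand, the Itgam probe within chr1:187534913-187535446, plus strand, and the Lyz2 probe within chr7:56629170-56629966; these 3 intervals are longer than the probe. Exons and UTRs of that build were not used here. From 5′ to 3′ as the files give them, the sequences are:
C1qa, first probe: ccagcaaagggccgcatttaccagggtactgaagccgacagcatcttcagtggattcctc
C1qa, second probe: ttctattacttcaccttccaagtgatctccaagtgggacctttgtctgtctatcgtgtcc
Cd163, first probe: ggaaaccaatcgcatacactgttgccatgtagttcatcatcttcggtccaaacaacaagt
Itgam: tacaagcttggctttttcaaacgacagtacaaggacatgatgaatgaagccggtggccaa
Lyz2: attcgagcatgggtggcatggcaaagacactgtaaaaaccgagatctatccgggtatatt

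The other probes lay at chr5:155657575-155657634 for C1qb, chr10:56495385-56495444 for Cd68 and chr4:118084401-118084460 for Clec4f, all on the minus strand. The Cd14 probes lay at chr18:29401636-29401695 and chr18:29402416-29402475, and the first Csf1r probe within chr18:57177463-57178164. Marco was matched by its description and is on an unplaced scaffold. Identity was uncertain for the other two of the 16 probes. Another probe described as Csf1r, far from the first at chr18:57133690-57133749, was never well above background. A probe described as a lysozyme, at chr7:56608910-56608969, now carries the name Lyc2, a near-identical copy of Lyz2, and may share signal with it. It is left out of all counts.

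Array quality followed the slide. The 3 male vehicle arrays shared slide 1 with replicate 1 of male dexamethasone. The other male dexamethasone arrays shared slide 2 with female vehicle replicates 1 and 2, and the remaining 4 arrays, all female, were on slide 3. Between 46.0% and 55.7% of probes were well above background on the male vehicle arrays, 66.5% on male dexamethasone replicate 1 and 72.4% to 80.4% on the other 8. The number of arrays, 3 a group, limits the precision of every value below. Levels are log2 processed signal minus the array's 75th percentile, so 0 is the signal that 75% of the array's probes lie below. Levels of different probes cannot be ranked against each other.

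Most of the macrophage markers were measurable in every culture. Adgre1, the F4/80 antigen used as a second macrophage check, was well above background on all 12 arrays at levels of 0.86 to 2.66, and so was Vsig4, a complement receptor of Kupffer cells, at -2.27 to 1.32. The pan-leukocyte marker Ptprc was above background on 9 arrays and on none of the 3 male vehicle arrays. Albumin, the hepatocyte's main secreted protein, was at 7.33 to 8.03. Ttr, another protein that hepatocytes secrete, was at 0.07 to 3.91 in female vehicle and at 4.34 to 5.54 over the other groups. In such bulk RNA fewer macrophages and less RNA per macrophage cannot be told apart.

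Csf1r, the receptor for colony-stimulating factor 1, on which macrophage survival depends, had levels of -1.09, -0.96 and -1.62 in male vehicle replicates 1 to 3 and of -0.95, -0.54 and -0.94 in male dexamethasone. In female vehicle they were 0.11, 1.29 and 0.48, and in female dexamethasone -0.19, 1.13 and 0.39. All 6 female arrays were above all 6 male arrays, and vehicle and dexamethasone overlapped in females but not in males. The second Csf1r probe was dim, from -5.54 to -4.10 over the 12 arrays, and followed the first weakly (Pearson r = 0.20 over 12 arrays, which share scaling and slides).

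Cd163, the haemoglobin scavenger receptor, was at -1.27, 0.16 and -0.43 in male vehicle and -1.31, -0.10 and -0.73 in male dexamethasone. Female vehicle gave -0.67, 1.25 and 1.08 and female dexamethasone -0.85, 1.25 and 0.93. Replicate 1 was the lowest of each group and replicate 2 the highest, and vehicle and dexamethasone overlapped fully. The second Cd163 probe followed the first over the 12 arrays (r = 0.97).

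Marco, a scavenger receptor for bacteria and particles, was at -1.32, 0.03 and 0.49 in males with vehicle and at -1.08, 0.66 and 0.11 with dexamethasone. In females it was at -0.09, 0.67 and 0.62 with vehicle and at -0.50, 1.07 and 0.38 with dexamethasone. Clec4f, a lectin that in rodents is found on Kupffer cells, was at -1.10, 0.34 and -0.16 in males with vehicle and at -0.76, 0.29 and -0.79 with dexamethasone. Female cultures gave -0.30, -0.17 and -0.98 with vehicle and -0.74, -0.39 and -1.18 with dexamethasone. For both genes every group overlapped every other, and replicate 3 was the lowest female array for Clec4f.

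Cd14, the co-receptor that passes lipopolysaccharide to Toll-like receptor 4, is also made by hepatocytes. Its levels in males were 4.32, 5.39 and 4.26 with vehicle and 4.45, 5.87 and 4.19 with dexamethasone. In females they were 3.77, 4.28 and 3.48 with vehicle and 4.29, 4.82 and 3.97 with dexamethasone. Replicate 2 was highest in each group, and in females each dexamethasone array was above the vehicle array of its own number. The 2 Cd14 probes moved together (r = 0.98).

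C1qa and C1qb encode chains of C1q, the recognition molecule of the classical complement pathway, which macrophages secrete. In males C1qa was at 2.56, 3.56 and 2.72 with vehicle and 2.66, 3.09 and 2.21 with dexamethasone. In females it was at 2.29, 4.07 and 3.64 with vehicle and 2.18, 3.99 and 3.60 with dexamethasone. C1qb was at 2.47, 3.26 and 2.46 in male vehicle and 3.10, 3.78 and 3.31 in male dexamethasone. In females it was at 2.39, 4.28 and 4.09 with vehicle and 3.16, 4.87 and 4.89 with dexamethasone. Every C1qb dexamethasone array was above the vehicle array of its number, although the groups overlapped, and female replicate 1 lay well below the other two in both treatments. The 2 C1qa probes agreed in pattern (r = 0.97).

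Cd68, a glycoprotein of the macrophage lysosome, was at 2.40, 4.15 and 3.64 in males with vehicle and 2.26, 3.72 and 3.73 with dexamethasone. The female levels of Cd68 were 3.16, 4.16 and 3.76 with vehicle and 3.08, 4.05 and 3.89 with dexamethasone. Replicate 1 was the lowest in each group, and the groups overlapped. Lyz2, the lysozyme of macrophages and granulocytes, was at 2.96, 3.39 and 3.37 in males with vehicle and 3.46, 3.88 and 3.22 with dexamethasone. Its female levels were 3.65, 4.03 and 3.61 with vehicle and 4.04, 4.55 and 4.05 with dexamethasone. For Lyz2 the female dexamethasone arrays were all above the female vehicle arrays, and in each treatment the females were all above the males.

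Itgam, the alpha chain of complement receptor 3, was close to background in male vehicle. It was at -5.28, -4.21 and -2.99 in male vehicle, where only replicate 3 was well above background, and at -3.65, -2.25 and -2.67 in male dexamethasone. Female vehicle gave -1.86, -0.99 and -1.30 and female dexamethasone -2.02, -0.73 and -1.29. All 6 female arrays were above all 6 male arrays.

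**Figure D1:**
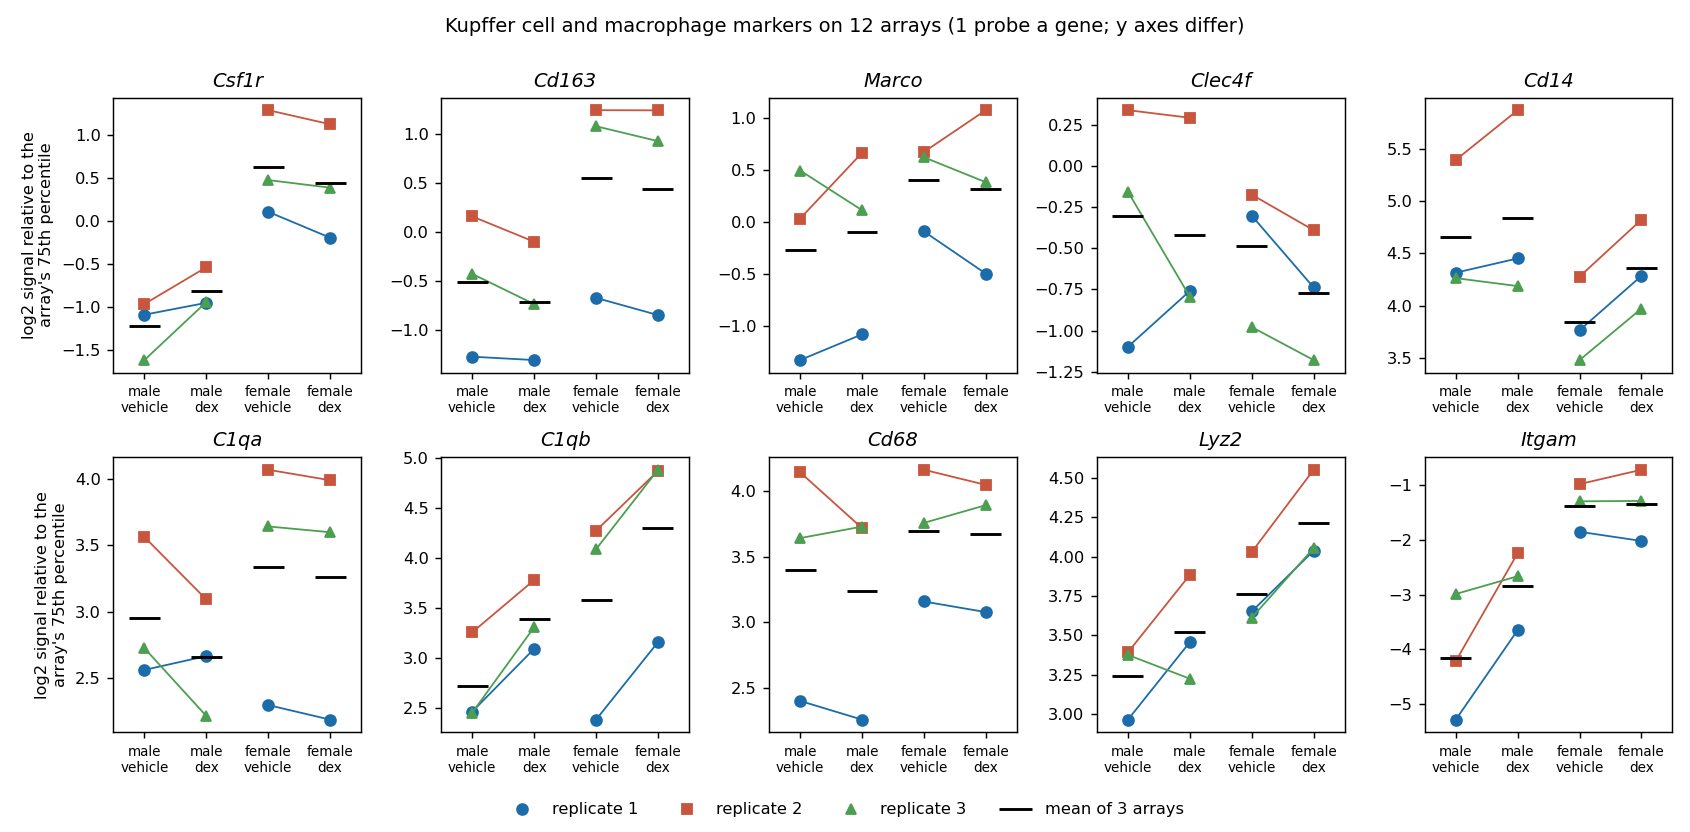
Level of the brightest probe of each of the 10 macrophage markers (log2 processed signal minus the array's 75th percentile) in the 4 groups, with 1 point for each array, lines between arrays of 1 sex and replicate number, and bars at group means. The vertical axes differ between genes. Csf1r and Itgam are higher on every female array than on any male array, while Cd163, Cd14 and Clec4f have replicate 2 highest in each group.

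Replicate 2 was the highest array for 11 of 14 marker probes in males with vehicle and 13 with dexamethasone, against 31.7% and 32.3% of all probes. In females it was highest for 13 with vehicle and 12 with dexamethasone, against 41.1% and 26.3%. It was highest in all 4 groups for 9 of the 14 (both probes each of C1qa, Cd14 and Cd163, with Clec4f, Lyz2 and the first Csf1r probe), against 4.49% of all probes. Summed over the 10 genes on the linear scale, in units of the 75th-percentile signal, the markers came to 46.2, 95.5 and 57.7 in male vehicle replicates 1 to 3 and 54.6, 113 and 58.3 in male dexamethasone. The female sums were 49.0, 97.7 and 72.4 with vehicle and 60.8, 122 and 94.3 with dexamethasone. Cd14, which hepatocytes also make, gave 31.2% to 51.5% of this sum on the male arrays and 15.4% to 32.1% on the female arrays. Without it the male sums were 26.3, 53.6 and 38.5 with vehicle and 32.7, 54.9 and 40.1 with dexamethasone. The female sums without it were 35.4, 78.3 and 61.3 and then 41.3, 93.3 and 78.6, so replicate 2 remained the highest of each group. The same sum over 9 pan-leukocyte genes was also highest in replicate 2 of each group. The sum over 12 hepatocyte genes ran from 1155 to 2257 over the 12 arrays and was highest in replicate 2 of each group too, by a smaller ratio. Their part in the marker levels was not tested.

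Vehicle and dexamethasone arrays of 1 replicate number resembled each other. In females the SD of the 3 differences between same-numbered arrays was below the SDs of both groups for 13 of 14 marker probes, against 32.8% of all probes. Its median was 0.12, with medians of 0.47 within vehicle and 0.71 within dexamethasone. In males this held for 10 of 14, against 21.7% of all probes, with medians of 0.29, 0.65 and 0.61. Over all probes the replicate numbers within each sex met the criterion for pairing given under the processing, and so did those of male against female arrays in dexamethasone but not in vehicle. The responses, and the sex difference in dexamethasone, are therefore given without the pairs, as the main test, and with the pairs as blocks where that changes the call.

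Dexamethasone moved no marker past the threshold in the main test. By limma with Benjamini-Hochberg adjustment over all kept probes, 0 of 14 marker probes passed an adjusted p of 0.05 in males and 0 of 14 in females, where 10.2% and 3.82% of all probes passed. At an unadjusted p below 0.05 there was 1 in males, Itgam, and 0 in females. The median difference over the 10 genes was 0.17 in males and -0.05 in females, beside -0.06 and -0.02 over all probes. Dexamethasone was above vehicle in all 3 pairs for 5 of 14 probes in males and 4 in females, against 19.5% and 27.4% of all probes, and below in all 3 pairs for 2 and 4, against 27.6% and 31.3%. The groups did not overlap for 2 of 14 in males (both Csf1r probes) and 1 in females (Lyz2), against 25.5% and 33.4% of all probes. The second Csf1r probe was not well above background on any male vehicle array, so its gap rests on background values.

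C1qb rose in both sexes when the replicate pairs were blocks. In males the differences were 0.63, 0.52 and 0.85 in the 3 pairs, a mean of 0.67 ± 0.13 (SE) or 1.59-fold, with an adjusted p of 0.0214 by limma. The female differences were 0.78, 0.60 and 0.79, a mean of 0.72 ± 0.13 or 1.65-fold, with an adjusted p of 0.0280. With these blocks 2 of 14 marker probes passed in males and 1 in females, all higher. Of all probes 15.8% and 6.45% passed, and 7.39% and 4.08% rose. Without the blocks the standard error was 0.56 in each sex and the adjusted p 0.480 and 0.623. Male pair 1 and female pair 3 each lay on 1 slide, with differences of 0.63 and 0.79. With 1 such pair a sex, the part of the slide was not tested by these pairs. With slide as the block in place of the pairs, C1qb gave 0.37 (adjusted p = 0.868) in males and 0.22 (adjusted p = 0.996) in females, where 1.85% and 0.997% of all probes passed. In the paired fit, normexp background correction lost the male call (0.31, adjusted p = 0.0690), and leaving out any 1 female pair lost the female call (adjusted p from 0.105 to 0.224).

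The other C1q chains did not pass. C1qa gave -0.29 ± 0.54 (SE) in males and -0.08 ± 0.54 in females in the main fit, with adjusted p of 0.772 and 0.980. With the pairs as blocks they were 0.235 and 0.844. C1qc, which is not among the 10 markers, gave 0.27 in males and 0.42 in females, with paired adjusted p of 0.179 and 0.107.

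The promoter of C1qb is shown because this probe passed the paired test in both sexes. RefSeq's 250 bases before the start of C1qb lie at chr5:154407828-154408077 on the minus strand of build GRCr8, a later build than that of the probes. In the sequence, capitals mark the match to the core of the glucocorticoid receptor's element:
C1qb: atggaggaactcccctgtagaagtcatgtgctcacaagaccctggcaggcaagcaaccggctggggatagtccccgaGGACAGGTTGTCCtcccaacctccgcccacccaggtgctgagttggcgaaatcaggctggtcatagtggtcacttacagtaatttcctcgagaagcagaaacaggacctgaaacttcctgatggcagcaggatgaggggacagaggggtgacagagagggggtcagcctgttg

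The core searched, on both strands, was GNACA and TGTNC with any 3 bases between them, and the match starts at -173 from the start site. It was found in 1 of the 10 markers' promoters and in 0.439% of 33469 rat promoters of 300 bases (250 before and 50 after the start). The full element, AGAACA and TGTTCT with the same spacing, contains the core. It was in no marker promoter and in 0.0149% of all. Letters bound by PU.1, a transcription factor of macrophages, were searched too. GAGGAA was in 7 of 10 marker promoters and 27.6% of all, and the overlapping AGGAAGT in 2 of 10, C1qb and Lyz2, and 8.41% of all. GAGGAAGT, which contains both, was in 0 of 10 and 2.42% of all. These 5 motifs were searched after the values were seen, and a match does not show that a factor binds.

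Itgam also passed the paired test, in males. Its differences were 1.63, 1.97 and 0.32 in pairs 1 to 3, a mean of 1.31 ± 0.31 (SE), with an adjusted p of 0.0358 by limma against 0.163 without the blocks. Since 2 of the 3 male vehicle arrays were not well above background for Itgam, the size of this difference is not well measured. It was 0.24 (adjusted p = 0.249) with normexp background correction and pairs, and 0.51 (adjusted p = 0.795) with slide as a block. The paired adjusted p was 0.0689 after quantile normalization, and 0.108, 0.134 and 0.0123 when pair 1, 2 or 3 was left out. In the unpaired fit, leaving out male vehicle replicate 3 brought it past the threshold (adjusted p = 0.0380). In females the difference was 0.03 ± 0.31 with the pairs as blocks.

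For Cd14 the female pairs gave 0.52, 0.54 and 0.49, a mean of 0.52 ± 0.14 (SE) with the pairs as blocks that did not pass (adjusted p = 0.0866, limma). The second Cd14 probe gave 0.49 with a paired adjusted p of 0.102, which was 0.0447 with normexp background correction. Lyz2 in females gave 0.39, 0.52 and 0.44 in the 3 pairs, with a paired adjusted p of 0.168. Cd163, Cd68, Marco and Clec4f gave mean differences between -0.28 and 0.17 in either sex, with standard errors of 0.41 to 0.65 in the main fit and 0.12 to 0.24 with the pairs as blocks. Changes well above these errors could also go undetected. In simulated data the main fit recovered 30% of log2 changes of 1 in the male response and 44% in the female response, over 50 random probes each. Median SDs over all probes were 0.39 in vehicle and 0.25 with dexamethasone in males, and 0.19 and 0.16 in females. For the marker probes they were higher, at 0.65 and 0.61 in males and 0.47 and 0.71 in females. Recovery at the SDs of the markers was not tested, nor was a sex difference in recovery.

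**Figure D2:**
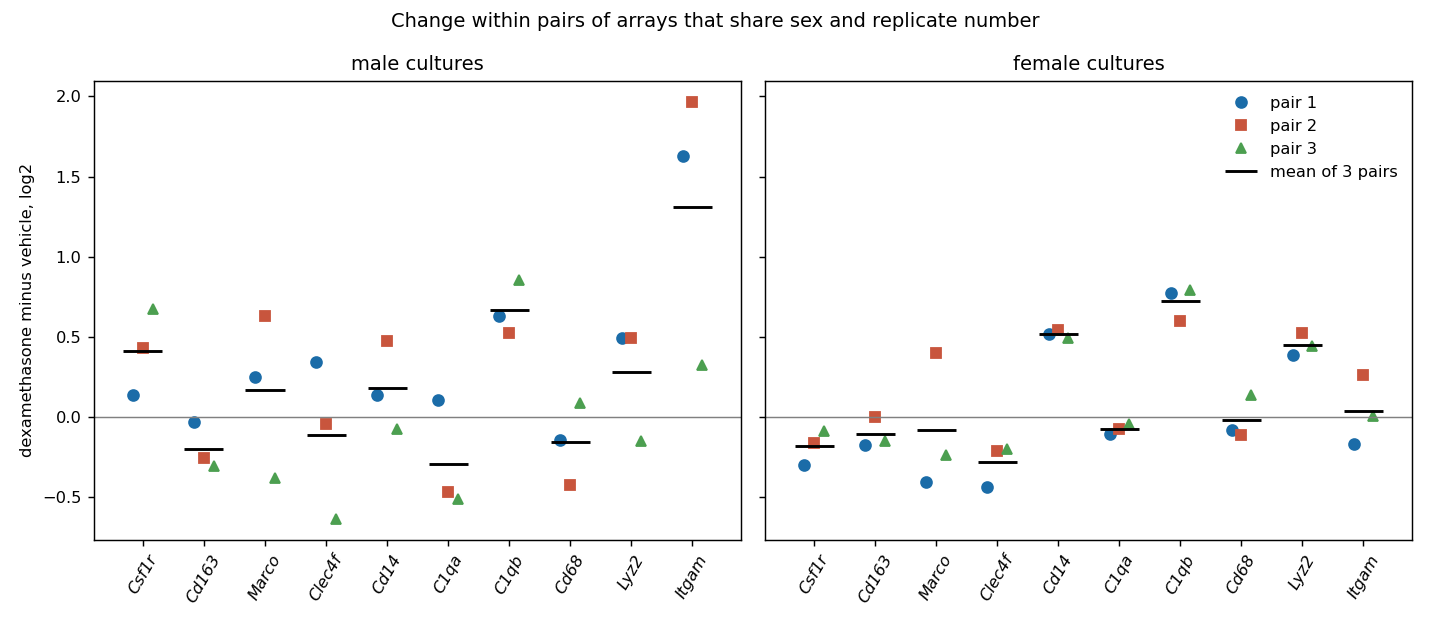
Difference between the dexamethasone and the vehicle array of 1 replicate number (log2), for the brightest probe of each marker in each sex, with 1 point for each of the 3 pairs and a bar at the mean. C1qb is above 0 in all 6 pairs, from 0.52 to 0.85, whereas the differences of C1qa lie on both sides of 0 in males.

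The response to dexamethasone was not shown to differ between the sexes for any marker. In the test of the difference itself, 0 of 14 marker probes passed, against 0.107% of all probes, and 0 had an unadjusted p below 0.05. With the pairs as blocks no marker passed either, and 0 of 30979 probes (0%) passed in all, with 5061 at an unadjusted p below 0.05. For Csf1r the male pairs gave 0.14, 0.43 and 0.68 and the female pairs -0.30, -0.16 and -0.09. The difference of the responses was -0.60 ± 0.52 (SE), with an adjusted p of 0.738 by limma and of 0.236 with the pairs as blocks. For C1qb the difference was 0.05 ± 0.79.

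In the main test Csf1r and Itgam were higher on female than on male vehicle arrays. Of 14 marker probes 2 passed, both higher in females, a share near the 14% of all probes that passed. The sexes did not overlap for 4 of 14 in vehicle, the dim second Csf1r probe among them, against 31.3% of all probes. Csf1r was higher by 1.85 ± 0.37 (SE, log2; adjusted p = 0.00968, limma), with means of 0.63 ± 0.61 (SD, n = 3) in females and -1.22 ± 0.35 in males. The second Csf1r probe, not well above background in male vehicle, did not pass (adjusted p = 0.229, limma), and the size of its difference was not measured. Itgam was higher by 2.78 ± 0.56 (adjusted p = 0.0104), with only 1 male vehicle array well above background, so its size depends on values near background. The median difference over the 10 genes was 0.59 in vehicle, beside -0.04 over all probes. In vehicle the sexes shared no slide, since male vehicle lay on slide 1 alone and no female array did. A fit with slide as a block can separate sex from slide only through the dexamethasone arrays. With slide as a block the values were 1.71 (adjusted p = 0.315) for Csf1r and 1.55 (adjusted p = 0.527) for Itgam, and the median over the genes was 0.03. Under that block 0.568% of all probes passed. With only the 2 vehicle groups in the fit the adjusted p of Itgam was 0.0515. Leaving out any 1 array kept both calls.

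Under dexamethasone 0 of 14 marker probes passed between the sexes, where 2.99% of all probes passed, and 3 had an unadjusted p below 0.05. Csf1r was higher in females by 1.25 ± 0.37 (SE; adjusted p = 0.0962, limma), Itgam by 1.50 ± 0.56 (adjusted p = 0.178) and Lyz2 by 0.69 ± 0.23 (adjusted p = 0.132). The sexes did not overlap for these 3 of the 14, against 32.2% of all probes. With the replicate numbers as blocks 4 of 14 passed, all higher in females, where 5.63% of all probes passed, 2.6% higher and 3.02% lower. These were Csf1r (adjusted p = 0.0221, limma), Cd163 at 1.16 (adjusted p = 0.0298), Itgam (adjusted p = 0.0395) and Lyz2 (adjusted p = 0.0403). The fit with these blocks also held the vehicle arrays, and its standard errors rest on them too. Between the sexes the same-numbered vehicle arrays did not meet the pairing criterion, so these calls depend in part on a pairing that was not met. In that fit quantile normalization lost Itgam and Lyz2, and normexp lost Lyz2 and gained the first C1qa probe and C1qb. Leaving out replicate 1 of every group lost Itgam and Lyz2, and leaving out replicate 2 or 3 lost all 4. The second Cd163 probe did not pass (adjusted p = 0.0846). The second Csf1r probe gave -0.21, lower in females, and did not pass without or with the blocks (adjusted p = 0.802 and 0.793). With slide as a block, in place of the replicate numbers, none of the 14 passed. The median over the 10 genes was 0.65, and 0.11 with slide as a block, beside 0.02 over all probes. Cd14 pointed the other way, at -0.81 ± 0.45 in vehicle (adjusted p = 0.255) and -0.47 ± 0.45 with dexamethasone. The lysozyme copy Lyc2 was higher in females by 1.45 ± 0.21 in vehicle (adjusted p = 0.00246) and by 1.32 ± 0.21 with dexamethasone (adjusted p = 0.00946). Neither call held once slide was a block (adjusted p = 0.285 and 0.325), and the second also without female dexamethasone replicate 2 (adjusted p = 0.0526).

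**Figure D3:**
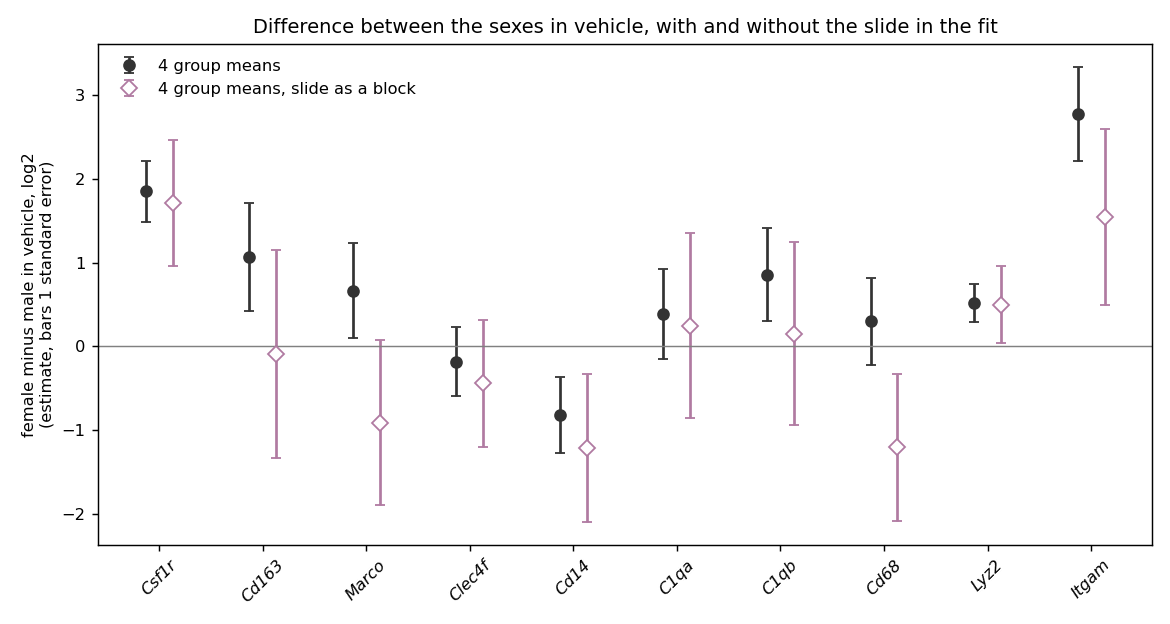
Female minus male difference in vehicle (log2) for the brightest probe of each of the 10 markers, from the 4 group means (filled circles) and with slide as a block (open diamonds), with bars of 1 standard error. Csf1r at 1.85 and Itgam at 2.78 are past the threshold without the block, and with slide as a block Cd163 moves from 1.07 to -0.09.

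The other macrophage genes gave a context for the markers. Of 48 further genes of macrophages, 41 were tested. In males 5 fell, where 4.85% of all probes fell, and the median was -0.33. In females 1 fell, where 1.01% of all probes fell, and the median was -0.15. With the pairs as blocks 4 rose and 10 fell in males, where 8.44% of all probes fell, and 1 rose and 6 fell in females, where 2.37% fell. With slide as a block 1 fell in males and none in females. Id3, a transcriptional regulator linked to Kupffer cell identity, fell by 1.20 ± 0.21 (SE; adjusted p = 0.00692, limma) in males and by 1.07 ± 0.21 (adjusted p = 0.0185) in females, both lost with slide as a block. The female call was also lost in 5 of 6 fits that left out 1 array. Vcam1, an adhesion molecule also of endothelium, fell by 1.61 ± 0.36 in males (adjusted p = 0.0201), and Tlr2, a receptor for bacterial lipoproteins, fell by 1.35 ± 0.38 (adjusted p = 0.0487). Both were lost with slide as a block, Vcam1 in 3 and Tlr2 in 5 of 6 fits that left out 1 array. Cd80, a co-stimulatory ligand, also passed in males but was not well above background in either group.

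Of 13 tested genes that glucocorticoids raise in macrophages, several of which respond in hepatocytes too, 5 rose in males and 5 in females, where 5.36% and 2.8% of all probes rose, with medians of 1.20 and 1.00. With pairs as blocks 8 rose in males and 5 in females, where 7.39% and 4.08% of all probes rose, and with slide as a block 3 rose in each sex. Il1r2, the decoy receptor for interleukin-1, rose by 5.04 ± 0.49 (SE; adjusted p = 0.000502, limma) in males and by 3.39 ± 0.49 (adjusted p = 0.00474) in females. Fkbp5, a co-chaperone of the glucocorticoid receptor, rose by 2.93 ± 0.18 (adjusted p = 4.49e-05) and 2.84 ± 0.18 (adjusted p = 5.28e-05). Tsc22d3, which encodes the protein GILZ, rose by 1.31 ± 0.21 (adjusted p = 0.00535) and 1.96 ± 0.21 (adjusted p = 0.000873). The calls of Tsc22d3 in males and of Il1r2 in females were lost with slide as a block. In males Il1r2 was not well above background on every array compared, so its size there is not well measured. Zbtb16, a transcription factor, rose by 4.32 ± 0.30 in females (adjusted p = 6.29e-05). In males it was at least 6.19-fold higher (adjusted p = 4.49e-05), since male vehicle was not well above background. For such a bound the dim group is taken at the lowest signal that still passed as well above background on its arrays, or at its own value where that was higher. Cd163 is on this list as well as among the markers and, with differences of -0.20 ± 0.65 in males and -0.11 ± 0.65 in females, did not pass.

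Most of the cytokines and other macrophage activation genes tested fell. Of 17, 11 fell and 1 rose in males, with a median of -1.64, and 10 fell and 2 rose in females, with a median of -2.07. Among all probes 4.85% and 1.01% fell. In male vehicle 11 of the 17 genes were well above background on all 3 arrays. The 11 calls counted as male falls included Il6 (adjusted p = 0.00949, limma). It was well above background on no male vehicle array and on 1 male dexamethasone array, so neither the direction nor the size of its change was measured. With slide as a block 4 of the 17 fell in males, and 5 fell and 1 rose in females, where 1.85% and 0.997% of all probes passed. Il1b, the precursor of interleukin-1 beta, fell by 4.87 ± 0.39 (SE; adjusted p = 0.000254, limma) in males and fell by 5.09 ± 0.35 (adjusted p = 0.000103) in females. Il1a, for interleukin-1 alpha, fell by 3.51 ± 0.39 (adjusted p = 0.000909) in males and fell by 3.31 ± 0.39 (adjusted p = 0.00144) in females. In each sex some array was not well above background for Il1a, so these sizes are not well measured. Ccl7, a monocyte-attracting chemokine, fell by 3.60 ± 0.23 (adjusted p = 4.49e-05) in males and fell by 4.67 ± 0.23 (adjusted p = 6.69e-06) in females. Cxcl10, an interferon-induced chemokine, fell by 3.04 ± 0.44 in males (adjusted p = 0.00308), and Ptgs2, an enzyme of prostaglandin synthesis, was at least 6.20-fold lower in females (adjusted p = 0.000183). Il10, an anti-inflammatory cytokine, was at least 2.33-fold higher in males (adjusted p = 0.00963) and rose by 2.20 ± 0.36 in females (adjusted p = 0.00871). Nfkbia, an inhibitor of NF-kB, rose by 1.11 ± 0.25 in females (adjusted p = 0.0383), a call lost in all 6 fits that left out 1 array. With slide as a block the calls of Il10 and Cxcl10 in males and of Nfkbia were lost too. Hepatocytes and other liver cells make several of these transcripts, and their source was not tested.

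**Figure D4:**
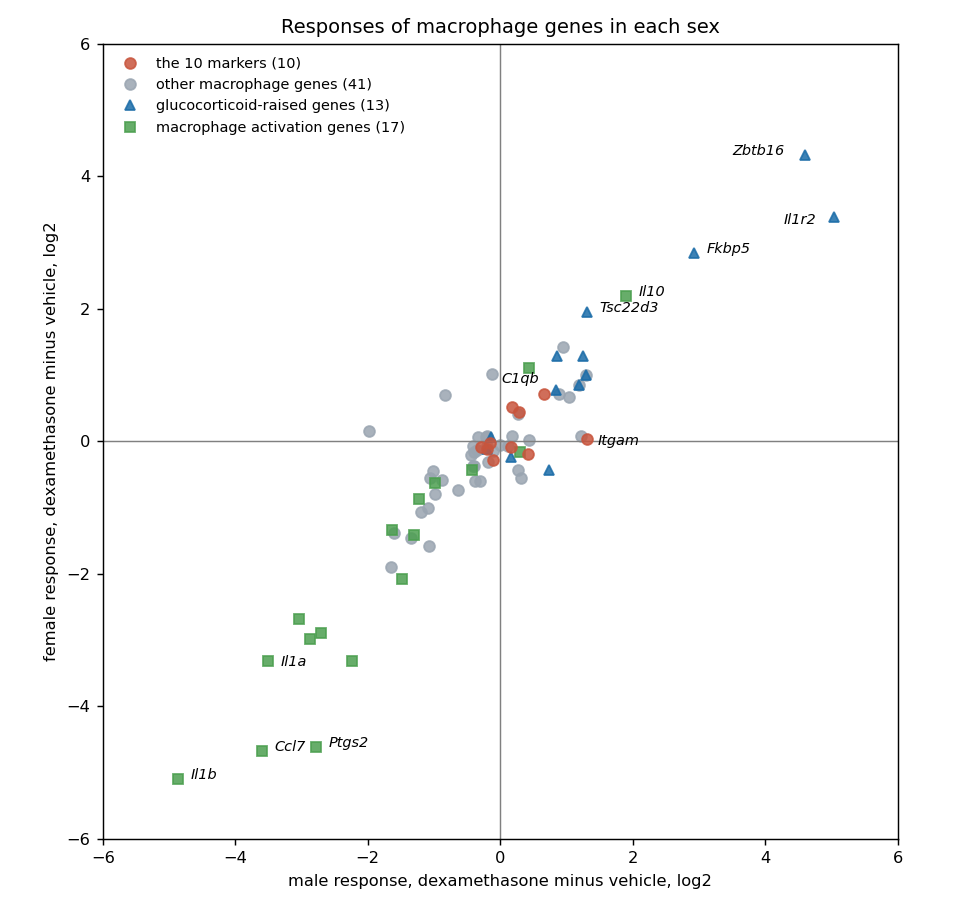
Dexamethasone minus vehicle difference (log2) in males on the horizontal axis and in females on the vertical axis, for genes of the 10 markers and of 3 further macrophage lists, with 1 point for each gene. Markers other than Itgam (1.31 in males) lie between -0.29 and 0.72 in both sexes, the activation genes reach -4.87 and -5.09 for Il1b, and Cd163 belongs both to the markers and to the glucocorticoid-raised genes.

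Between the sexes in vehicle, 6 of the 41 other macrophage genes were higher in females and 1 lower, where 6.25% and 7.73% of all probes were higher and lower. Ly86, a partner of a Toll-like receptor relative, was higher by 2.08 ± 0.52 (SE; adjusted p = 0.0259, limma). Ctss, a lysosomal protease, was higher by 1.65 ± 0.43 (adjusted p = 0.0305), Msr1, a scavenger receptor, by 1.64 ± 0.40 (adjusted p = 0.0236) and Cybb, a subunit of the phagocyte oxidase, by 1.49 ± 0.37 (adjusted p = 0.0238). All 4 were lost with slide as a block, and each in 3 or 4 of 6 fits that left out 1 array. The lower one, Cx3cr1, was not well above background in either group. With dexamethasone 2 were higher in females, where 1.23% of all probes were: Csf3r, the receptor for granulocyte colony-stimulating factor, by 1.37 ± 0.31 (adjusted p = 0.0438), and Cd86, a co-stimulatory ligand, by 1.34 ± 0.21 (adjusted p = 0.00935). Both were lost with slide as a block, and Csf3r in all 6 fits that left out 1 array. Csf3r was well above background on only 2 of the 3 male dexamethasone arrays. With the replicate numbers as blocks 14 of the 41 were higher in females under dexamethasone, against 2.6% of all probes, and none lower.

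Of the glucocorticoid-raised genes 2 were higher and 2 lower in female vehicle: Il1r2 by 2.38 ± 0.49 (SE; adjusted p = 0.0116, limma), Tsc22d3 at -1.01 ± 0.21 (adjusted p = 0.0131), Fkbp5 at -0.66 ± 0.18 (adjusted p = 0.0373), and Adora3, which was not well above background in male vehicle. Of the activation genes, Cxcl10 was higher by 1.50 ± 0.44 (adjusted p = 0.0472), Nfkbia was at -0.89 ± 0.25 (adjusted p = 0.0410), and Ptgs2 was not well above background in male vehicle. With dexamethasone Ccl2, a monocyte chemokine, was lower in females at -1.32 ± 0.25 (adjusted p = 0.0196), where 1.77% of all probes were lower. With the replicate numbers as blocks 1 gene was higher and 1 lower there in each of these 2 lists, where 2.6% of all probes were higher and 3.02% lower. None of these calls held with slide as a block, and Fkbp5, Cxcl10, Nfkbia and Ccl2 were lost in 5, 4, 5 and 5 of 6 fits that left out 1 array.

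Markers of other cells varied with the groups as well. Their counts stand beside 5.36% of all probes that rose and 4.85% that fell in males, 2.8% and 1.01% in females, and 6.25% higher and 7.73% lower in female vehicle. With the pairs as blocks 7.39% rose and 8.44% fell in males, and 4.08% and 2.37% in females. With the replicate numbers as blocks 2.6% were higher and 3.02% lower in females under dexamethasone. Of 9 pan-leukocyte genes tested, 0 passed for dexamethasone in either sex, with 1 at an unadjusted p below 0.05 in males and 0 in females. With the pairs as blocks 1 rose and 1 fell in males, and 1 was higher in females under dexamethasone. Cd48, a leukocyte adhesion protein, was higher in female vehicle by 2.08 ± 0.36 (SE; adjusted p = 0.00538, limma) but not with slide as a block. Their summed level was 11.8 to 25.2 in males with vehicle and 12.1 to 19.3 with dexamethasone, and 16.7 to 31.0 and 13.9 to 30.2 in females. Of 12 hepatocyte genes 2 rose and 1 fell in males, 2 rose in females, and 3 were lower in female vehicle. With the pairs as blocks 3 rose in each sex, and 2 in place of 1 were lower in females under dexamethasone. Their sums were 1784 to 2257, 1507 to 1695, 1155 to 1502 and 1392 to 1556 in the same order.

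Of 9 neutrophil genes 2 were tested. In the group order just used, 0, 1, 1 and 2 of them were above background on all arrays of the group. By the main test 1 was lower with dexamethasone in males and 1 in female vehicle than in male vehicle, both near background, the first not with the pairs as blocks, and no S100a8 probe was kept. Of 14 lymphocyte genes 9 were tested, and 2, 5, 9 and 7 were above background on all arrays of the group. In the main fit by limma 0 passed in any comparison (2 in males and 0 in females at an unadjusted p below 0.05 for dexamethasone). Paired, 1 fell in males, and 1 was higher in females under dexamethasone. Cd3e was above background on 1 of 12 arrays. In the same order of groups, summed levels ran from 1.04 to 1.54, 0.92 to 1.23, 1.09 to 2.02 and 1.19 to 1.75 for lymphocytes. For neutrophils they ran from 0.086 to 0.12, 0.11 to 0.29, 0.12 to 0.21 and 0.27 to 0.31. Of 4 dendritic cell genes tested 1 fell in each sex and 1 was higher in female vehicle, with sums of 5.89 to 8.75, 4.12 to 6.32, 6.77 to 13.7 and 4.85 to 10.3, and Flt3 was not kept. A further dendritic gene rose in males with the pairs as blocks, and 1 was higher in females under dexamethasone.

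Markers of stellate cells and fibroblasts differed between the sexes beside Csf1r and Itgam. Of 10 tested, 6 were higher in female vehicle, with a median of 2.27, where 6.25% of all probes were higher. With slide as a block 2 were, where 0.568% of all probes passed, and under dexamethasone 2 of the 10 were higher in females, where 1.23% of all probes were. Lrat, the retinol-esterifying enzyme of stellate cells, was at least 6.45-fold higher in female than in male vehicle (adjusted p = 0.000219, limma). In male vehicle 6 of the 10 genes were well above background on all 3 arrays, so the median of 2.27 includes values near background. For dexamethasone 1 of the 10 fell, in females, and 1 in each sex with the pairs as blocks. Their summed levels were 95.9 to 121, 79.0 to 94.7, 88.7 to 128 and 73.1 to 117 in the same order of groups. Of 10 endothelial genes tested, 1 rose and 1 fell in males and 1 rose in females, and 1 was higher and 1 lower in female vehicle. Their sums were 1.09 to 3.35, 1.15 to 2.08, 1.79 to 3.41 and 2.34 to 3.92, with Stab2 and Pecam1 above background on 8 and 7 arrays. In the paired fit 3 endothelial genes fell in males and 1 in females, and 1 was higher in females under dexamethasone. Of 8 bile duct genes tested, 1 rose in each sex and 1 was lower in female vehicle, with sums of 3.20 to 13.6, 7.36 to 9.52, 13.8 to 27.2 and 8.99 to 14.9. In the paired fit 2 bile duct genes rose in males, and 1 fell and none rose in females. The part of these cells in the marker results was not tested.

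The genes most like 4 of the markers over the 12 arrays were named by Pearson r, among 11266 probes, as a description. The arrays share scaling, slides and treatment groups. For Csf1r they were Eng (r = 0.96), Bst1 (0.95) and Fgfr4 (0.94), and for Cd163 they were Pltp (0.99), Cpxm1 (0.99) and the pan-leukocyte gene Laptm5 (0.96). For Cd14 they were Lgals9 (0.98), C1rl (0.97) and Bhmt2 (0.95). For C1qb they were the third C1q chain C1qc (0.95), the complement factor Cfd (0.94) and Faxdc2 (0.93).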

How the data were processed

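Cy3-labelled total RNA of 12 samples was hybridised, per the labels, each to its own 1-colour rat array, 4 to a slide. The deposited files give the intensity of each spot. They were made with version 9.5.3.1 of Agilent Feature Extraction, per the file headers (9.5 per the submitters' processing notes), and give coordinates on build rn3. The processed signal is a linear intensity, background-subtracted within each array and not scaled between arrays, per the file headers; the authors' deposited value table holds the same intensity in 540216 of 540216 spots. Here outlier-flagged spots were left out, spots of a probe averaged, log2 taken and each array's 75th percentile subtracted. Python 3.11.15 and pandas 2.3.3 prepared the tables.

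limma 3.58.1 in R 4.3.3 fitted 4 group means on all 12 arrays, per probe, with two-sided Benjamini-Hochberg adjustment over all kept probes and a threshold of 0.05. The fits were tested on simulated data. The brightest probe stood for a gene in counts over genes. Where no array of a group measured a gene above background, no size from the main fit is given, only a bound where one could be set. The text names every marker probe and, from each further macrophage or leukocyte list, up to 4 rises and 4 falls of largest change per comparison; C1qc was added after their values were seen. The markers and lists were chosen with earlier results of these data known.

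The replicate numbers were taken to pair samples where every same-numbered pair correlated above 0.1, by the data alone. Within a sex, deviations from group means of same-numbered vehicle and dexamethasone arrays correlated at 0.27, 0.46 and 0.27 in males and 0.43, 0.27 and 0.35 in females, over 30741 probes. Male and female arrays correlated at 0.18, 0.17 and 0.21 in dexamethasone, which met the criterion, and at 0.11, 0.02 and 0.04 in vehicle, which did not. The labels do not say what a number marks. Alternatives were array-median scaling, quantile normalization, normexp background correction (offset 50), other filters, slide or replicate blocks, fits of fewer groups or slides, 1 probe per gene, flagged spots kept, and each replicate left out. Promoters came from RefSeq (GRCr8). No genome of build rn3 was used here.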

Additional observations from a re-analysis of the deposited data

How the results depend on the processing

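The male response passed for 3161 probes in the main fit, 12610 with no filter, 333 with only the groups compared and 574 with slide as a block. Within slide 1 it passed for 0 by limma (2460 at an unadjusted p below 0.05), and for 1409 to 4163 when 1 array was left out. The female response passed for 1182, and for 2974 with only the groups compared, 630 after quantile normalization, 309 with slide as a block and 354 to 1108 without 1 array. The difference of responses passed for 33, and for 15 with array-median scaling, 7427 with no filter, 0 with normexp, 6 with only probes above background on every array, 320 after quantile normalization, 4 with slide as a block and 0 to 665 without 1 array. The sex difference in vehicle passed for 4332, and for 14243 with no filter, 13825 with normexp, 1011 with only the groups compared, 176 with slide as a block and 1970 to 5277 without 1 array. In dexamethasone it passed for 927, and for 604 with no filter, 36 with slide as a block and 205 to 527 without 1 array.

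The replicate block gave 4905 probes for the male response, 1999 for the female response and 0 for their difference (5061 at an unadjusted p below 0.05). Between the sexes, same-numbered arrays met the pairing criterion in dexamethasone (0.18, 0.17 and 0.21) but not in vehicle (0.11, 0.02 and 0.04), and the replicate block gave 1743 probes for the sex difference in dexamethasone. That block was fitted over the vehicle and dexamethasone arrays together. Among the 14 marker probes the replicate block gave 2 calls in males, 1 in females, and 4 between the sexes in each treatment, against 0, 0, 2 and 0. In vehicle, where the criterion was not met, 3 of these were higher in females and 1, the first Cd14 probe, was lower. There 5612 of 30979 probes passed in all. With the replicate block, and chosen after seeing the data, array-median scaling gave 2 in males, 1 in females and 4 between the sexes in dexamethasone, quantile normalization 1, 1 and 2, and normexp 1, 2 and 5. Over all probes these 3 settings gave 6102, 1862 and 1695, then 5326, 1047 and 1215, and then 10423, 2236 and 2245. Leaving out replicate number 1, 2 or 3 gave 1, 1 and 2 in males, 0 each in females, and 3, 0 and 0 between the sexes. Over all probes this gave 4107, 2089 and 4773 in males, 152, 379 and 160 in females, and 541, 203 and 138 between the sexes. Without the block, leaving out 1 array gave 0 to 1 in males, the 1 being Itgam without male vehicle replicate 3. The sex difference in vehicle kept 1 of 2 marker calls with the strict filter, 1 with only the groups compared and 0 with slide as a block, and that in dexamethasone gained 1 with normexp.

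Array-median scaling moved the median male change over all probes from -0.06 to -0.18, and the male calls from 1659 higher and 1502 lower to 1236 and 2503; quantile normalization gave 2643 and 1288. In the sex difference in vehicle 3 named genes reversed: Cx3cr1 to 0.059 after quantile normalization, and Adora3 to -0.32 and Ptgs2 to -0.045 with normexp, none then past the threshold. The causes of these changes were not tested, beyond the fewer arrays or groups that some settings hold. Signal over background limits Itgam, the second Csf1r probe and the genes given as bounds, above all in male vehicle. It also limits Il1r2, Il1a, Ly86, Cd48 and Csf3r. Each of these was not well above background on some array of a comparison in which it was called.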
